A study of Dunaliella viridis with 39 samples.

Results

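A set of 28 loci, out of 18495 measured in the green alga Dunaliella viridis, combined a high transcript level in cells without nitrogen with a moderate excess over nitrate-fed cells. They were chosen by their measured values, on counts scaled by DESeq2 median-of-ratios size factors. A locus needed a mean of at least 1000 scaled counts in no nitrogen medium at 27 h, which 546 loci reached. Its log2 ratio of no nitrogen to nitrate, with a pseudocount of 10, had to be at least 1 and under 2 at 27 h, which left 44 loci, and at least 1 at 51 h, which left 28. The last condition, a log2 ratio of glutamine to nitrate above -1 at 3 h, removed none, and the lowest value among the chosen loci was -0.65, in Locus_5957. All 28 passed the filter on low counts, with at least 112 counts in every library. The excess over nitrate at 27 and 51 h is therefore given as a description, and tests are kept to libraries that did not choose the loci.

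RNA came from whole cells of strain dumsii, a salt-water unicellular alga grown in continuous light. Cells were moved into medium without added nitrogen, with 5 mM L-glutamate, with 5 mM L-glutamine or with 5 mM KNO3 (nitrate), and were sampled 3, 27 and 51 h later. The labels describe glutamate as a starvation control that adds a stable amino acid the cells do not use. The nitrate-grown inoculum was sampled at 0 h, which gave 13 groups of 3 libraries, each from a repeat of the whole experiment. Levels are counts-per-million (CPM) on scaled library sizes unless stated otherwise.

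A green alga that runs out of nitrogen stops dividing, takes nitrogen back from its own proteins and pigments, and directs carbon into starch and neutral lipid. It also raises transport and scavenging systems for nitrogen compounds. Glutamine can feed such a culture when it releases ammonium, the form that green algae take up in preference to nitrate. Loci carry numbers and no gene names in the deposited tables, so no function can be given for any of the 28, and each is described by its level, its course over time and its length.

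Total counts per library ranged from 3342102 to 41114965 (median 10192407), and 17569 loci entered the tests. The 28 loci took between 0.186% and 2.2% of a library's counts. There were 3 libraries that stood apart. The share of counts held by the top 10 loci was 17.5% for glutamate 51 h replicate 3 and 18.2% for nitrate 3 h replicate 2, while the remaining 37 libraries ranged between 40.4% and 59.6%. In no nitrogen 51 h replicate 1 only 15777 loci had any count, where each of the others had 17719 or more. The last 2 of these libraries entered the choice of the loci, and without them the same conditions gave 27 loci, 26 of them among the 28.

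The summed level of the 28 loci set the starved media, no nitrogen and glutamate, clearly above nitrate at 27 and 51 h, which the choice of the loci favours, and did not tell no nitrogen and glutamate apart. At 27 h it was 9488 ± 671 CPM without nitrogen, 9868 ± 392.5 CPM in glutamate, 4133 ± 128.5 CPM in glutamine and 3303 ± 129 CPM in nitrate (SD, n = 3 each). At 51 h it was 9676 ± 385 CPM without nitrogen, 9872 ± 319 CPM in glutamate, 7899 ± 441 CPM in glutamine and 3110 ± 345 CPM in nitrate. The 3 h sums lay between 3106 ± 113 CPM in glutamine and 3913 ± 416 CPM without nitrogen, with 3342 ± 141 CPM in the inoculum, and every glutamine library of 3 h was below every other 3 h library. In CPM, glutamine cultures stood closer to nitrate cultures at 27 h and closer to the starved ones at 51 h. In transcripts-per-million (TPM) values, which the authors deposited beside the counts, the 51 h sums were 4331 ± 1610 without nitrogen, 6713 ± 3039 in glutamate, 3049 ± 681 in glutamine and 1406 ± 550.3 in nitrate, with a much larger spread between libraries.

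**Figure D1:**
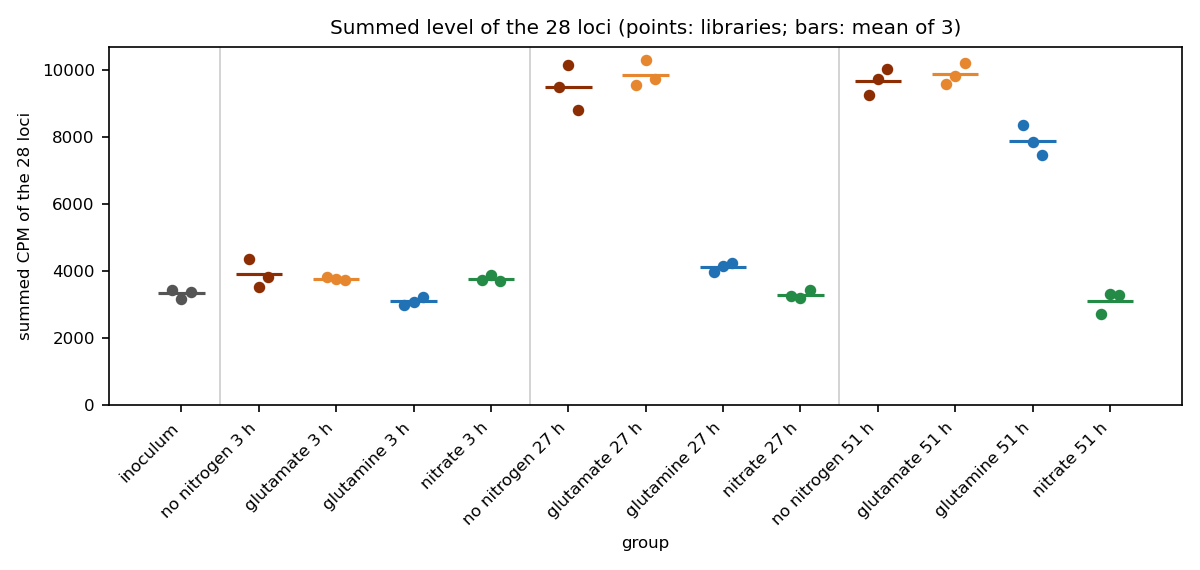
Summed CPM of the 28 loci (y axis) in each of the 39 libraries, by group along the x axis from the inoculum to 51 h; points are libraries and bars are means of 3. The glutamine libraries average 4133 CPM at 27 h and 7899 CPM at 51 h, while no nitrogen and glutamate libraries average 9488 to 9872 CPM at both times and nitrate libraries 3303 and 3110 CPM.

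The loci differed widely in abundance within this pattern. The most abundant were Locus_21 and Locus_42. Locus_21 had 1970, 2512 and 1841 CPM in the no nitrogen libraries at 27 h, against 603, 748 and 739.7 CPM in nitrate. Locus_42 had 969.7, 1114 and 1163 CPM in the no nitrogen libraries at 27 h, against 388, 367 and 429.6 CPM in nitrate. For both, every starved library lay above every nitrate library, which the choice of the loci favours. At 51 h Locus_21 had 2385, 2633 and 2709 CPM without nitrogen, against 546, 677.5 and 582 CPM in nitrate.

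Over the 28 loci the fitted log2 difference between no nitrogen and nitrate had a median of 1.46 at 27 h (range 1.13 to 1.93) and of 1.53 at 51 h (1.02 to 2.15), against medians of 0.09 and 0.07 over all tested loci. These contrasts chose the loci, and nothing is read from them. At the edges of the choice, Locus_7962 was just inside with a mean of 1017 scaled counts and Locus_1353 just outside with 989.7. At the lower bound at 27 h Locus_5434 was inside with a log2 ratio of 1.13 and Locus_4040 outside with 0.97. At the upper bound Locus_7889 was inside with 1.90 and Locus_5461 outside with 2.07. At 51 h Locus_5434 was inside with 1.01 and Locus_2759 outside with 0.97. Several excluded loci thus resembled the chosen ones closely.

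The group with the highest mean CPM was glutamate at 51 h for 8 loci and glutamate at 27 h for 8. It was no nitrogen at 27 h for 6, glutamine at 51 h for 4 and no nitrogen at 51 h for 2. These counts depended on the scale. In TPM the mean in glutamine at 51 h was at most 80.6% of that in glutamate at 51 h. On that scale glutamine at 51 h was thus the highest group for 0 loci. The median log2 difference of glutamate against glutamine at 51 h over all tested loci was 0.78 there, against 0.06 in the edgeR fit. The lowest mean CPM fell in glutamine at 3 h for 13 loci and in nitrate at 51 h for 7. It fell in the inoculum for 4 and in nitrate at 27 h for 4. The choice of the loci kept nitrate at 27 and 51 h from being the highest group, so these counts are a description.

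**Figure D2:**
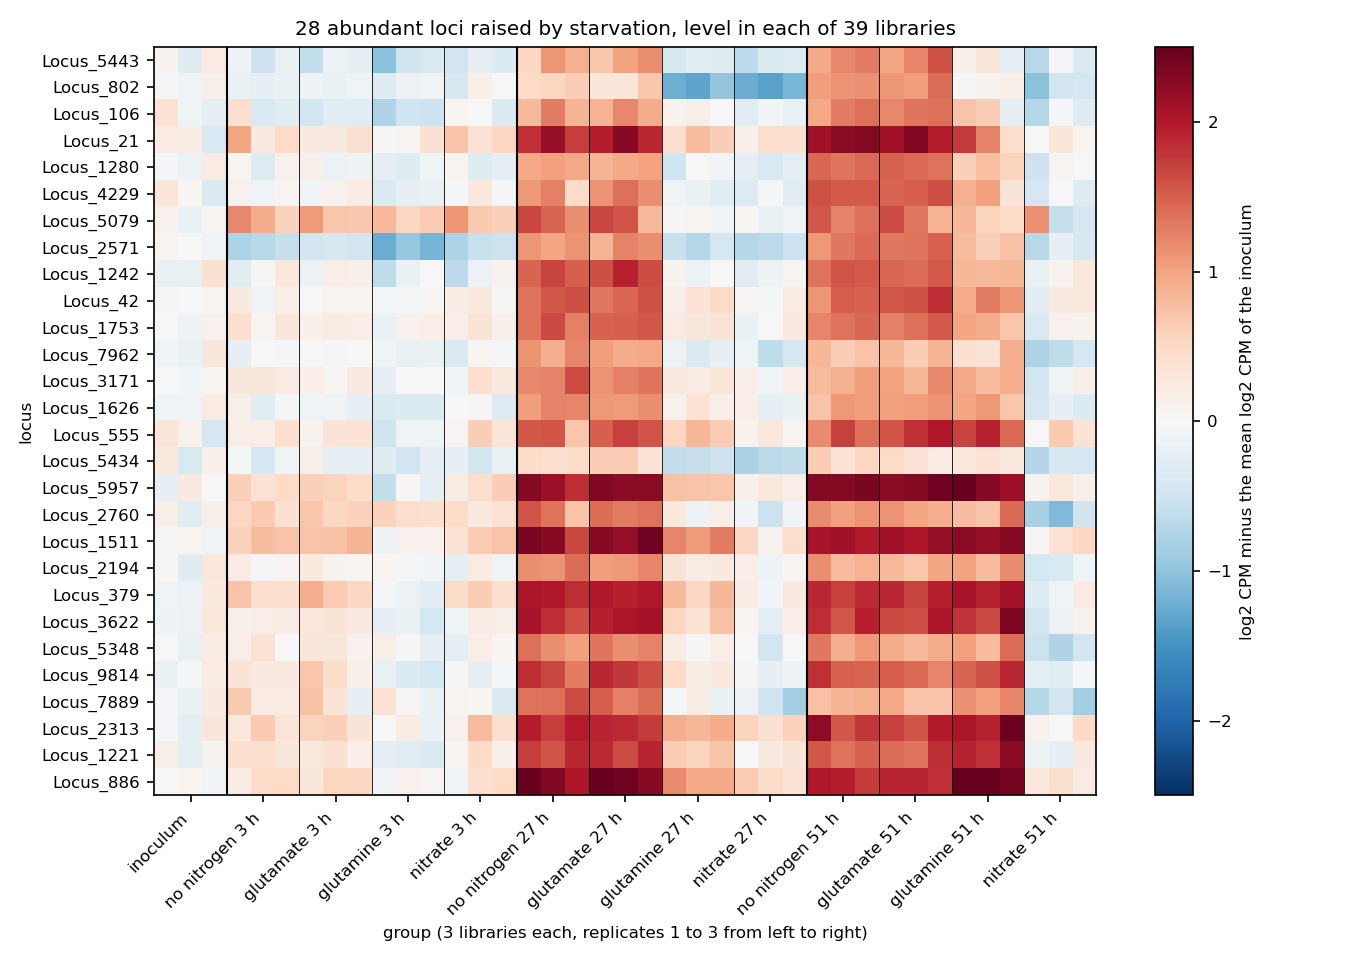
Level of each of the 28 loci (y axis, ordered by the glutamate to glutamine difference at 51 h) in each of the 39 libraries (x axis, by group and time), as log2 CPM minus the mean log2 CPM of the inoculum; red is above and blue below the inoculum. The no nitrogen and glutamate columns at 27 and 51 h are red throughout. The glutamine columns are mostly red at 51 h, more so in the lower part of the plot. Some cells in the upper part are not above the inoculum. Locus_106 had 113.9 CPM in glutamine 51 h replicate 3, against 174.8, 125.0 and 114.0 CPM in the inoculum.

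Glutamate was set against glutamine at 27 h to see how the loci stand in cells with an unused amino acid and cells with a used one, in 6 libraries that took no part in the choice. Here 28 of the 28 loci were higher in glutamate, against 15.8% of all tested loci called higher by edgeR. The median log2 difference of the 28 was 1.24 (range 0.87 to 1.74), against 0.10 over all tested loci. Among the 518 other loci with at least 1000 scaled counts in no nitrogen medium at 27 h, 18.1% were called higher and 22.8% lower, with a median of 0.03. In 28 of the 28 every glutamate library lay above every glutamine library, against 24.0% of all tested loci.

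The largest difference belonged to Locus_1242. It had 315, 389 and 319 CPM in the glutamate libraries, against 109.5, 93.5 and 104 CPM in the glutamine libraries at 27 h. The groups were far apart, and the fitted log2 difference was 1.74 (SE 0.19, adjusted p from edgeR = 4.28e-09). Locus_2571 had 116, 152 and 144 CPM in glutamate, against 43.8, 39.2 and 47.65 CPM in glutamine. Its groups did not overlap either (1.65 on the log2 scale, SE 0.14, edgeR adjusted p = 1.49e-11).

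In the libraries of sequencing run 1, with 1 glutamine library, the median difference was 1.18 with 25 of the 28 and 714 of all loci called higher. In run 2, with 1 glutamate library, it was 1.20 with 25 of the 28 and 1241 of all loci. A group with 1 library is assumed to vary like the others in such fits. On the deposited TPM values, tested with limma, 10 of the 28 were called higher at 27 h, beside 420 of all loci. The median was 1.14, against 0.03 over all loci.

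**Figure D3:**
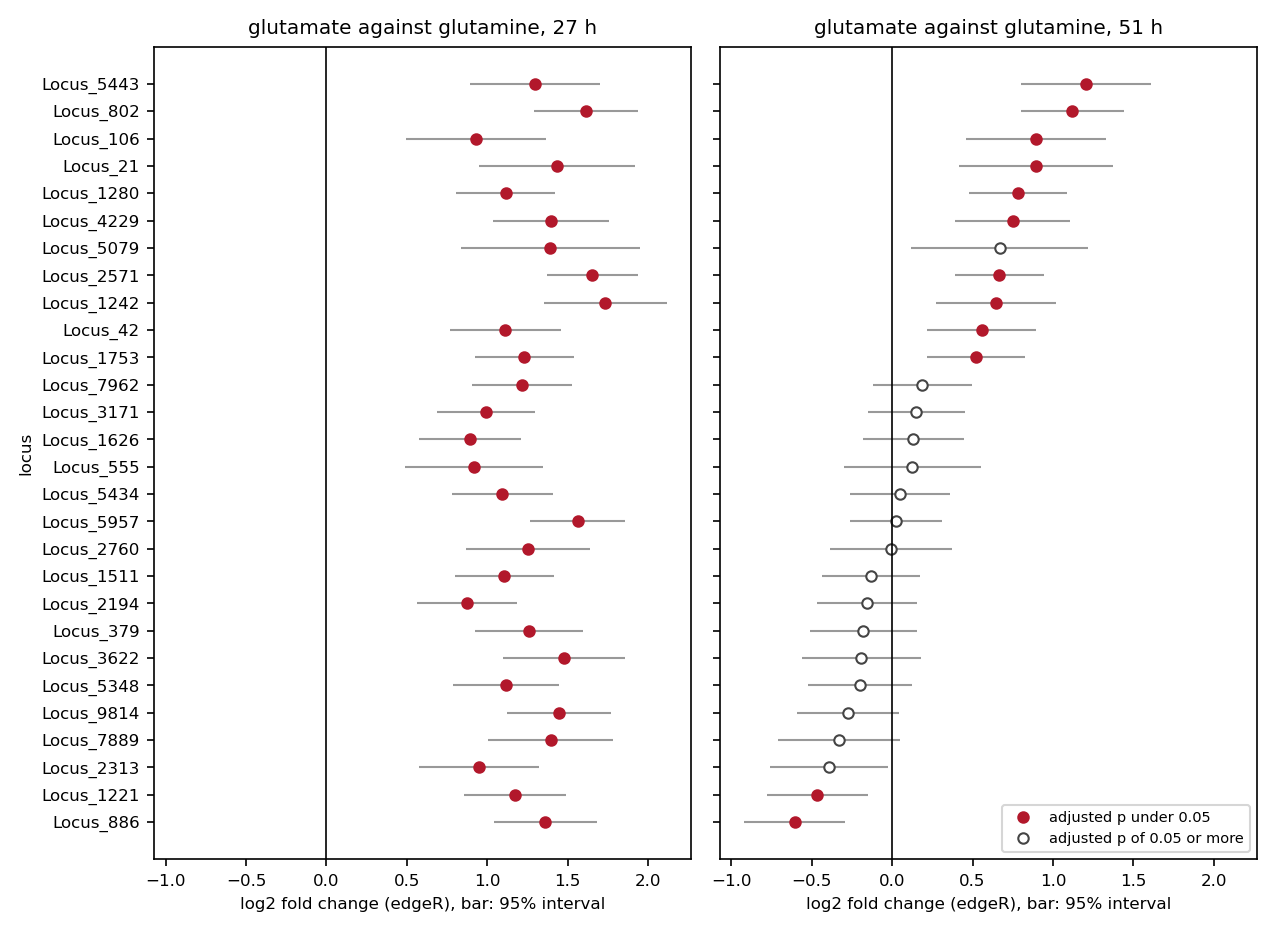
Fitted log2 fold change (x axis) of glutamate against glutamine for each of the 28 loci (y axis) at 27 h on the left and 51 h on the right; bars are 95% intervals, and filled points have an edgeR adjusted p under 0.05. All 28 points lie at 0.87 or above at 27 h, whereas at 51 h they spread from -0.61 to 1.21 and 12 are filled. On the TPM scale the lowest point, Locus_886, was at 0.27 at 51 h, where the median of all loci was 0.78.

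By 51 h the edgeR calls for the loci were mixed. Of the 28, 10 were higher in glutamate than in glutamine, against 13.2% of all tested loci, and 2 were lower, against 13.1%. The other 16 passed in neither direction, and 17 of the 28 had a positive estimate. The median log2 difference was 0.13 (range -0.61 to 1.21), against 0.06 over all tested loci, and for 20 loci the 95% interval lay within 1 log2 unit of 0. Of the other 518 abundant loci 7.14% were called higher and 25.3% lower. The glutamate libraries lay wholly above the glutamine libraries in 11 of the 28, against 19.2% of all tested loci, and wholly below in 2, against 17.8%.

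The largest difference that remained at 51 h was that of Locus_5443. It had 128, 151 and 193 CPM in glutamate, against 71.2, 79.6 and 54.9 CPM in glutamine. Every glutamate library was higher (log2 fold change 1.21, SE 0.20, edgeR adjusted p = 3.74e-05). Its length estimate varied between libraries more than that of most loci, as described further on. Locus_802 had 324, 311 and 397 CPM in glutamate, against 146, 159.9 and 168 CPM in glutamine. Its groups were well separated (log2 fold change 1.12, SE 0.16, edgeR adjusted p = 4.15e-06).

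Locus_886 went the other way. It had 283, 284 and 268 CPM in glutamate, against 438, 435 and 398 CPM in glutamine at 51 h. Every glutamine library was thus above every glutamate library (log2 fold change -0.61, SE 0.15, edgeR adjusted p = 3.90e-03), while on the TPM scale the difference was 0.27 where the median of all loci was 0.78. Locus_1221, named here after its values were seen because only 2 loci were lower, had 130, 124 and 178 CPM in glutamate, against 186, 174 and 236 CPM in glutamine. Its libraries overlapped by a narrow margin (log2 fold change -0.47, SE 0.16, edgeR adjusted p = 0.0246; 0.37 on the TPM scale).

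The count at 51 h leaned on single libraries and on the scaling. Without glutamine 51 h replicate 3 it was 6 higher and 1 lower, beside 718 higher and 1034 lower of all loci. Without the 3 libraries that stood apart it was 9 higher and 3 lower, beside 1803 and 2131. With a trend over locus length removed in each library it was 6 higher and 4 lower, beside 2019 and 2474. In the main fit 2317 of all loci were higher and 2307 lower. On the TPM scale 12 were higher and 0 lower by limma, beside 5579 higher and 65 lower of all loci, with medians of 1.00 for the 28 and 0.78 for all loci, and in a fit of the 6 compared libraries edgeR called 8 higher and 0 lower. In run 2 alone 10 were higher and 1 lower (median 0.14), beside 2347 higher and 2437 lower of all loci. In run 1, which held 1 library of each group, the median was 0.12.

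The change between the times was itself tested as an interaction of medium and time. The glutamate excess was smaller at 51 h than at 27 h for 19 of the 28 loci, against 2.61% of all tested loci, and larger for 0. All 28 estimates were negative, with a median of -1.03 on the log2 scale (range -1.97 to -0.04), against 0.04 over all tested loci. An unadjusted p under 0.05 was reached by 23, or 82.1%, against 16.1% of all tested loci. Among the other 518 abundant loci 10.2% were called lower in the same test, with a median of -0.22.

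The largest change was that of Locus_886, whose 51 h values were given above. At 27 h it had 429, 408.5 and 365 CPM in glutamate, against 172.5, 149 and 147 CPM in glutamine. The order of the media was therefore opposite at 27 and 51 h in the CPM values, and the interaction was -1.97 (SE 0.22, edgeR adjusted p = 1.27e-07). Locus_9814 had 130, 121 and 105 CPM in glutamate at 51 h, against 125, 138 and 169 CPM in glutamine, which overlap. At 27 h it had 167, 154 and 139 CPM in glutamate, against 63.15, 51.9 and 53.4 CPM in glutamine, which do not. Its interaction was -1.73 (SE 0.22, edgeR adjusted p = 1.77e-06).

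Read together, the test at 51 h and the test of the change split the 28 loci into 5 sets. There were 14 that were not called at 51 h and had a smaller excess than at 27 h. Another 7 were higher in glutamate at 51 h with no call for the change, namely Locus_21, Locus_42, Locus_106, Locus_802, Locus_1280, Locus_4229 and Locus_5443. There were 3 that were still higher but by less, Locus_1242, Locus_1753 and Locus_2571. Another 2 were lower in CPM, Locus_886 and Locus_1221. Their differences on the TPM scale were 0.27 and 0.37, where the median of all loci was 0.78. Locus_555 and Locus_5079 passed neither test. These sets follow from the calls and are listed after the values were seen.

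Without the 3 libraries that stood apart the change was called for 19 loci. Run 2 had 1 glutamate library at 27 h, and run 1 had 1 library in 3 of the 4 groups. The median change was -1.0 within both runs. On TPM values limma called 0, with a median of -0.08 against 0.81 over all loci.

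In CPM, the loci moved between 27 and 51 h mainly in the glutamine cultures. Of the 28 loci, 24 were higher in glutamine at 51 h than at 27 h, against 4.66% of all tested loci, and 0 were lower. All 28 estimates were positive, with a median log2 change of 0.93 (range 0.34 to 1.60), against -0.01 over all tested loci, and 14.9% of the other 518 abundant loci were called higher. The later libraries lay wholly above the earlier ones in 26 of the 28, against 12.8% of all tested loci.

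Locus_5957 had 144, 125 and 112 CPM in glutamine at 51 h, against 42.5, 41.8 and 41.5 CPM at 27 h. The later libraries stood clear of the earlier ones (log2 change 1.60, SE 0.15, edgeR adjusted p = 4.20e-10). They overlapped the glutamate libraries of 51 h, which had 122, 125 and 139 CPM, with 1 of the 3 glutamine libraries above that range and 1 below it. For Locus_886 the glutamine values at the 2 times, given above, did not overlap either (log2 change 1.44, SE 0.16, edgeR adjusted p = 2.20e-08).

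The 4 loci that did not pass in glutamine, named after their values were seen, were Locus_21, Locus_106, Locus_5079 and Locus_5443. Locus_21 had 1850, 1311 and 747 CPM in the glutamine libraries at 51 h, against 738, 951 and 846.5 CPM at 27 h. The 51 h libraries were spread widely, with 1 inside the range at 27 h and the other two above it, and had a coefficient of variation of 42.3%. The log2 change of 0.62 (SE 0.24) had an edgeR adjusted p of 0.0910. Locus_106 likewise had 221, 208 and 114 CPM at 51 h, against 143, 151 and 134 CPM at 27 h. In both loci replicate 3 was the lowest of the 51 h libraries.

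Glutamine cultures at 51 h reached different shares of the starved level from locus to locus, and the shares depended on the scale. In CPM the mean in glutamine was 152% of that in glutamate for Locus_886, 100.2% for Locus_2760, 96.7% for Locus_5434, 53.9% for Locus_21 and 43.5% for Locus_5443. In TPM the same shares were 80.6%, 53.7%, 52.6%, 26.4% and 28.5%. Over the 28 loci the share at 51 h had a median of 91.5% in CPM (range 43.5% to 152%, 11 loci above 100%) and of 47.4% in TPM (23.6% to 80.6%, 0 above). At 27 h the medians were 42.2% in CPM (30.0% to 54.6%) and 42.7% in TPM (29.9% to 53.7%). For these shares the scales thus differed at 51 h and not at 27 h. The gap at 51 h was not particular to the 28. Over all tested loci the median log2 difference of glutamate against glutamine at 51 h was 0.78 in TPM and 0.06 in the edgeR fit. The difference from nitrate is given with no test, since the choice of the loci favours low nitrate values at 27 and 51 h. For glutamine its fitted log2 median was 0.27 at 27 h (range 0.03 to 0.83), against -0.01 over all tested loci. At 51 h it was 1.21 (0.37 to 2.19), against -0.02. All 28 of 28 were positive at both times, which the choice favours, and the lowest at 27 h was 0.03 (SE 0.18, Locus_4229).

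Within run 2 there were 19 loci higher in glutamine at 51 h than at 27 h (median 0.92), beside 479 of all loci. Within run 1, with 1 library at each time, the median was 0.95. On TPM values limma called 0, with a median of 0.54 against -0.28 over all loci.

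**Figure D4:**
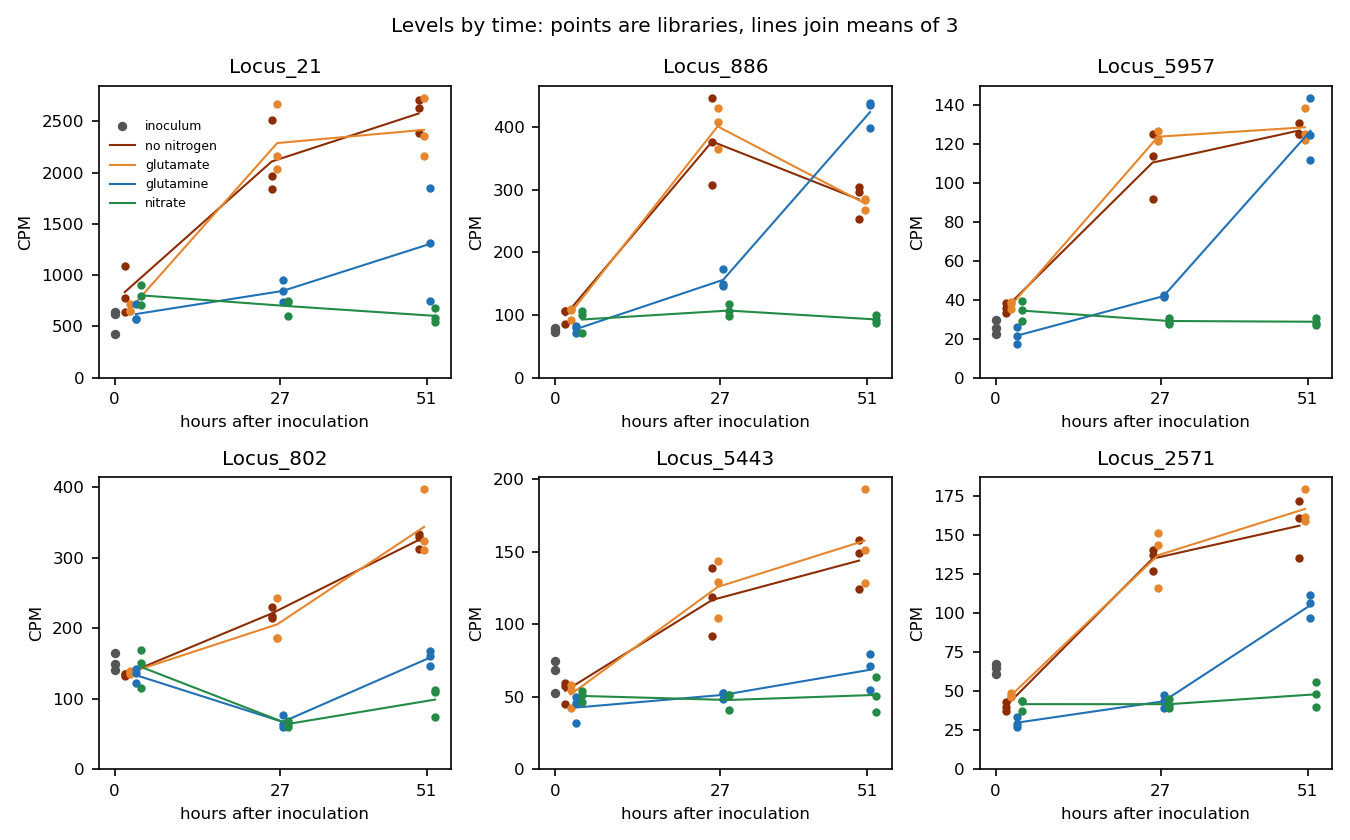
CPM (y axis) against hours after inoculation (x axis) for 6 of the named loci; points are libraries, shifted sideways by medium so that they can be told apart, and lines join the means of 3. Locus_886 and Locus_5957 in glutamine reach or pass the starved media at 51 h. Locus_802, Locus_5443 and Locus_2571 in glutamine stay below them, and Locus_21 spreads from 747 to 1850 CPM. On the TPM scale Locus_886 was not lower in glutamate than in glutamine at 51 h. Its log2 difference there was below the median of all loci, which was 0.78.

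In glutamate medium the loci rose between 3 and 27 h, and 1 of them was called higher again at 51 h. Of the 28, 27 were higher at 27 h than at 3 h, against 15.7% of all tested loci, with a median log2 change of 1.30 (range 0.57 to 1.95) against 0.04 over all tested loci. The 27 h libraries lay wholly above the 3 h libraries in 27 of the 28, against 22.5% of all tested loci. The exception was Locus_5079, with a log2 change of 0.57 (SE 0.27, edgeR adjusted p = 0.101), and with the replicate number as a block all 28 were called.

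Locus_886 had the 27 h glutamate values given above, against 92.3, 109.8 and 109 CPM in glutamate at 3 h. Every later library was far above every earlier one (log2 change 1.95, SE 0.16, edgeR adjusted p = 8.23e-12). Locus_21 had 2162, 2667 and 2034 CPM in glutamate at 27 h, against 649, 647 and 716 CPM at 3 h. These groups were likewise clear of each other (log2 change 1.77, SE 0.24, edgeR adjusted p = 4.92e-07). Run 1 alone gave 26 loci called higher (median 1.22), and run 2, where each time had 1 library, gave a median of 1.36 and 22 calls that rest on the spread of other groups. On the same comparison limma on TPM values called 15 higher, beside 561 of all loci. The median was 1.42, against 0.16 over all loci.

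Between 27 and 51 h in glutamate 1 of the 28 loci was higher at the later time, against 0.125% of all tested loci, and 0 were lower. The median log2 change was -0.12 (range -0.59 to 0.74), and for 27 of the 28 the 95% interval lay within 1 log2 unit of 0. The 1 locus called higher was Locus_802, with 324, 311 and 397 CPM in glutamate at 51 h, against 187, 187 and 243 CPM at 27 h. Its groups did not overlap (log2 change 0.74, SE 0.16, edgeR adjusted p = 0.0251). The call was lost without replicate 1 or 2 at 27 h and without replicate 2 or 3 at 51 h. The last of these is a library that stood apart. DESeq2 called 2 loci higher and 1 lower. With log2(TPM + 1) values limma called 0 of the 28, beside 8 higher and 0 lower of all loci. The median change in glutamate was 0.45, against 0.50 over all loci.

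Locus_802 was lower at 27 h than at 3 h in the fed media. This is given without a test because the 3 h libraries and the nitrate libraries of 27 h entered the choice of the loci. In glutamine it had 64.45, 60.2 and 76.4 CPM at 27 h, against 122, 137 and 142 CPM at 3 h, a ratio of means of 0.502. In nitrate it had 64.1, 59.5 and 68.7 CPM at 27 h, against 115, 168.5 and 151 CPM at 3 h, a ratio of 0.442. All 6 fed libraries at 27 h were thus below all 6 at 3 h. The same ratios were 0.633 and 0.548 for Locus_5079, 0.766 and 0.678 for Locus_2760 and 0.849 and 0.752 for Locus_5434, all named after their values were seen. Locus_7889 (0.938 and 0.753) and Locus_7962 (0.942 and 0.839) were nearer to 1. In all, 6 of the 28 had a lower mean at 27 h than at 3 h in both fed media, and 23 had one in nitrate. The choice of the loci favours low nitrate values at 27 h. The share over all loci was not computed, so nothing is read from these counts.

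The first 3 h were examined against the inoculum, which all cultures came from. In glutamate at 3 h 3 of the 28 loci were higher than in the inoculum, against 0.729% of all tested loci, and 0 were lower. The median log2 change was 0.19 (range -0.44 to 0.81), and 9, or 32.1%, reached an unadjusted p under 0.05, against 9.37% of all tested loci. Locus_1511 had 46.15, 46.4 and 50.2 CPM in glutamate at 3 h, against 28.6, 29.4 and 26.25 CPM in the inoculum. The libraries did not overlap (log2 change 0.77, SE 0.15, edgeR adjusted p = 2.73e-03). Locus_379 had 436, 364 and 333 CPM in glutamate at 3 h, against 220.2, 209 and 275 CPM in the inoculum (log2 change 0.68, SE 0.16, edgeR adjusted p = 0.0163). The third, Locus_5957, was at the threshold (log2 change 0.54, SE 0.15, edgeR adjusted p = 0.0497).

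Without nitrogen at 3 h 1 of the 28 was higher than in the inoculum, against 0.951% of all tested loci, and 1 was lower, against 1.21%, with 9 at an unadjusted p under 0.05, against 13.5% of all tested loci. The higher one was again Locus_1511, with 41.8, 48.1 and 46.0 CPM without nitrogen, against the same inoculum libraries (log2 change 0.69, SE 0.16, edgeR adjusted p = 7.57e-03). The lower one was Locus_2571, with 37.5, 40.0 and 43.3 CPM without nitrogen at 3 h, against 67.7, 64.6 and 60.7 CPM in the inoculum. Its groups were apart (log2 change -0.67, SE 0.14, edgeR adjusted p = 3.14e-03). In glutamate at 3 h Locus_2571 had 46.9, 48.75 and 46.4 CPM, with a log2 change against the inoculum of -0.44 (SE 0.14, edgeR adjusted p = 0.111). Both comparisons use the same inoculum libraries.

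These early counts were small and moved with single libraries. In glutamate 1 locus was called without glutamate 3 h replicate 1 or without inoculum replicate 1, and 6 were called by DESeq2. Without nitrogen 1 was called without inoculum replicate 3 and 5 by DESeq2. Within either run 0 were called in both comparisons, where run 1 held 1 inoculum library and run 2 held 1 library of each 3 h group.

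Glutamate and no nitrogen at 3 h did not differ by any call. Of the 28 loci 0 were called by edgeR, against 0.0% of all tested loci, 0 reached an unadjusted p under 0.05 (419 of all tested loci did), and DESeq2 and limma on TPM values also called 0. The median log2 difference was 0.04 (range -0.31 to 0.23), and all 28 of the 95% intervals lay within 1 log2 unit of 0.

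Length and replicate spread were not named in the choice of the loci. Effective length, derived from the ratio of deposited counts to deposited TPM and set to 1 for the median tested locus, had a median of 1.85 (range 0.519 to 6.23), against 1.22 in the 518 other abundant loci. Choosing by counts favours long loci, which the 518 share. Per length, in TPM, a measure close to the level that the choice used, the 28 were less abundant than those others, with a median of 99.05 TPM without nitrogen at 27 h against 203.7 TPM, and 6.35 TPM over all tested loci. Their replicates were close, with a coefficient of variation of 10.1% in the median locus, against 13.0% in the other abundant loci and 20.0% over all tested loci. No trait was tested here.

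Length moved with the difference that was left at 51 h. The 10 loci still higher in glutamate had a median relative length of 3.47, the 16 not called 1.77 and the 2 lower 1.36. Across the 28 loci the log2 difference of glutamate against glutamine at 51 h and log2 relative length had Pearson's r of 0.55 and Spearman's rho of 0.48. The values were 0.37 and 0.33 across the 518 other abundant loci and 0.14 and 0.15 across 15433 loci with a length. At 27 h the same relation across the 28 had r of 0.12 and rho of 0.08. For glutamine at 51 h against 27 h it was -0.60 by both measures across the 28, against -0.13 and -0.24 across the 518. These are descriptions across loci, which share libraries and are not independent replicates, and the part of length in the result was not tested beyond the trend removal given above. Locus_106 and Locus_5443 had a ratio of counts to TPM that varied between libraries, with relative lengths from 3.52 to 6.67 for Locus_106 and from 3.35 to 6.39 for Locus_5443, so their length is uncertain.

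**Figure D5:**
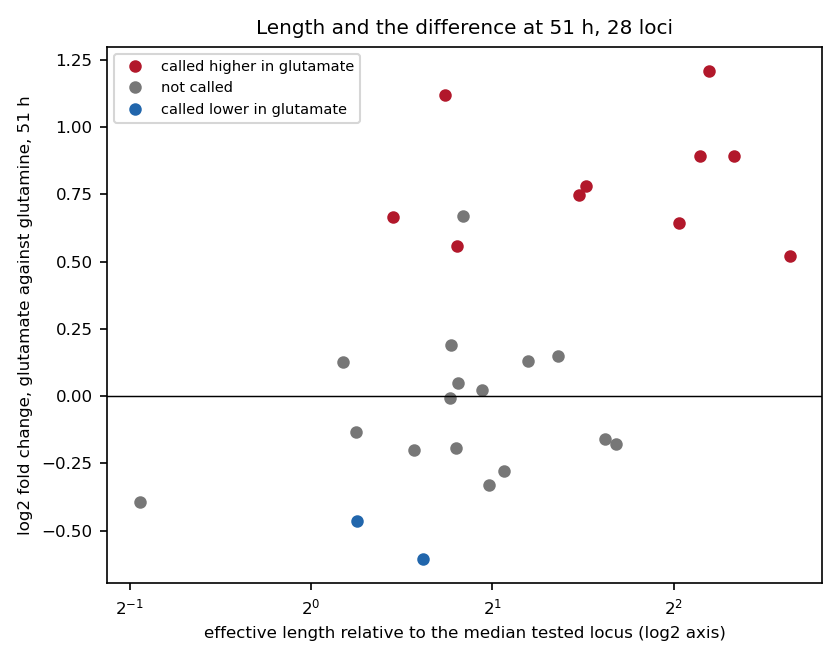
Log2 fold change of glutamate against glutamine at 51 h (y axis) against effective length relative to the median tested locus (x axis, log2 scale) for the 28 loci, coloured by the edgeR call. Called higher loci lie from 1.37 to 6.23 in length and the 2 called lower loci at 1.19 and 1.53. Those 2 had positive differences on the TPM scale, where the median of all loci was 0.78.

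The 51 h difference was also described beside the early change in glutamate, which was not called for 25 of the 28 loci. Across the 28, the log2 difference of glutamate against glutamine at 51 h had r of -0.57 and rho of -0.62 with the log2 change of glutamate at 3 h against the inoculum, 2 contrasts with no library in common. Among the 28, loci with a larger change over the first 3 h tended to have a smaller glutamate excess in CPM, or none, at 51 h. Over all tested loci the same r and rho were 0.10 and 0.08. With the log2 difference of glutamine against glutamate at 3 h, r and rho were both 0.45 across the 28. Over all tested loci both were -0.17. The glutamine libraries of 3 h entered the choice of the loci. These too are descriptions across loci, which share libraries and are not independent replicates. The 51 h difference depended on the scale and moved with length, and the part of either in these relations was not tested. With the 27 h difference of the same media the 51 h difference had r of 0.25 and rho of 0.16 across the 28, against 0.61 and 0.63 over all tested loci.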

How the data were processed

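Read counts and transcripts-per-million (TPM) values were deposited as a table each, with 39 libraries and 18495 loci. Per the labels' protocols, ribosomal RNA was depleted and strand-specific single-end libraries were sequenced in 2 runs. Per the submitters' processing notes the tools included edgeR 3.4.0, RSEM, STAR and FastQC. What each tool did, the genome build, the annotation and the strand setting were not given in the sources used here. Each culture was duplicated per the labels' protocols, and how the duplicates entered a library is not stated.

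The counts were analysed in R 4.3.3 with edgeR 4.0.16: filterByExpr (17569 loci kept, 926 removed with 0.0235% of the counts), TMM factors (0.617 to 2.16), and 1 quasi-likelihood fit of all 39 libraries with a mean per group. Contrasts were adjusted over all tested loci by Benjamini-Hochberg, and called means an adjusted p under 0.05. Standard errors and 95% intervals were derived from the F values and are approximate. CPM used TMM-scaled libraries. The fit was tested on simulated data.

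The members, comparisons and lists were chosen with earlier results of these data known. Loci were named by rule: in each comparison the 2 largest called changes in each direction without overlap between the groups, and the 2 most abundant members. The labels make a replicate number a repeat of the whole experiment, so numbers pair the libraries. Deviations from group means correlated at a mean of 0.0964 over 234 same-number pairs and -0.0477 over 468 others. Replicate 1 was in run 1, replicate 3 in run 2 and replicate 2 in either. No replicate pair was alike to within sampling noise (lowest chi-square per degree of freedom 5.63).

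Alternatives were RLE factors, no filter, DESeq2 1.42.0, a replicate block, run as a covariate, the compared libraries alone, limma 3.58.1 on log2(TPM + 1) or log2(TPM + 0.1), within-run fits, leaving out libraries, and other choices of members. Removal of a length trend was added after the data were seen.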

Additional observations from a re-analysis of the deposited data

Results flagged for a closer look

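The difference between glutamate and glutamine was not the same at 27 and 51 h for 19 of the 28 loci, by the interaction of medium and time in edgeR with an adjusted p under 0.05. All 19 had a smaller glutamate excess at 51 h, or one that was negative in CPM. On the log2 scale the change was -1.97 for Locus_886, -1.73 for Locus_9814, -1.72 for Locus_7889, -1.67 for Locus_3622 and -1.64 for Locus_1221. It was -1.54 for Locus_5957, -1.44 for Locus_379, -1.34 for Locus_2313, -1.32 for Locus_5348, -1.26 for Locus_2760 and -1.24 for Locus_1511. It was -1.09 for Locus_1242, -1.04 for Locus_5434, -1.03 for Locus_2194, -1.03 for Locus_7962, -0.99 for Locus_2571, -0.84 for Locus_3171, -0.76 for Locus_1626 and -0.71 for Locus_1753. On log2(TPM + 1) values limma called 0 of these changes.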

How the results depend on the processing

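The shallowest library, glutamate 51 h replicate 3, enters every comparison of glutamate at 51 h. On log2(TPM + 1) and log2(TPM + 0.1) values limma called 10 and 9 of the 28 loci for glutamate against glutamine at 27 h, 0 and 0 for the change, 0 and 0 for glutamine at 51 h against 27 h, 15 and 15 for glutamate at 27 h against 3 h, 0 and 0 for glutamate at 51 h against 27 h, and 0 and 0 for either 3 h medium against the inoculum. There Locus_886 was at 0.27 and 0.27 for glutamate against glutamine at 51 h, the reverse of -0.61. The TPM scale moved the median of all loci at 51 h to 0.78. DESeq2 called 3 loci for glutamate at 51 h against 27 h, 6 for glutamate at 3 h and 5 for no nitrogen at 3 h against the inoculum. For glutamate at 51 h against 27 h, 0 were called in a fit of the compared libraries, without the 3 libraries that stood apart, and within either run. Within run 1 the counts were 0 for glutamate against glutamine at 51 h, 0 for the change, 2 for glutamine at 51 h against 27 h and 0 for both 3 h media against the inoculum, and within run 2 they were 6 for the change and 0 for both 3 h media. The cause of these differences was not tested. The fits within a run also had fewer libraries, with 1 library in some groups. Calls over all loci fell too in the within-run fits and the limma fits listed here.

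Leaving out each library in turn gave 28 to 28 calls for glutamate against glutamine at 27 h, 7 to 13 at 51 h, 16 to 19 for the change, 24 to 25 for glutamine at 51 h against 27 h, 27 to 27 for glutamate at 27 h against 3 h, 0 to 1 at 51 h against 27 h, 1 to 2 for glutamate and 1 to 3 for no nitrogen at 3 h against the inoculum. With a minimum of 500 scaled counts the rule gave 76 loci, and with 2000 it gave 12. In that order the calls were 76 and 12 for glutamate against glutamine at 27 h, 38 and 7 at 51 h, 42 and 7 for the change, 59 and 10 for glutamine at 51 h against 27 h, 72 and 12 for glutamate at 27 h against 3 h, 2 and 1 at 51 h against 27 h, 11 and 1 for glutamate and 10 and 0 for no nitrogen at 3 h against the inoculum. With the replicate number as a block the calls were 28, 13, 19, 25 and 28 for the first 5 of these comparisons, and the pairing moved no count of the 28 loci by over 1.5 times; Locus_5079 was called under the block at 51 h. Over all tested loci the block gave 1087 calls for the change against 701 without it, 98 against 42 for glutamate at 51 h against 27 h, and 438 against 288 for glutamate at 3 h against the inoculum. The RLE factors, the fit without a filter and run as a covariate kept every count of the 28 loci within 1.5 times. Removing the length trend, chosen after seeing the data, gave 28, 10, 20, 26 and 27 calls for the same 5 comparisons. Of 300 alternative values for the named loci 252 kept direction and side of the threshold, 46 kept the direction only, and 2 reversed.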
